A study of Sus scrofa with 32 samples.

Results

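The comparison described here set the luminal epithelium (LE) of the endometrium against its stroma (S) in the same 4 pregnant gilts on Day 14. Its members were chosen by their labels as the 8 libraries of these 2 compartments, out of 31 libraries with counts, and were paired by the animal number of the gilt. The genes were the 12959, out of 30185 counted, that the authors had called detectable in LE or in S. Of these, 10978 were detectable in both compartments, 1024 in LE only and 957 in S only.

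All gilts in the study were prepuberal pigs (Sus scrofa) whose cycles had been synchronized with eCG followed by hCG. The pregnant gilts were inseminated with German Landrace semen, and the 4 cyclic control gilts received the sperm-free supernatant from the same boar. The endometrium of the pregnant gilts was taken at the hyperemic zones, the places where conceptuses attach, and each compartment was cut from stained sections by laser capture microdissection (LCM), a method that lifts chosen cell areas off the slide. S was cut from stromal areas in which no other structure was visible. The paper considers that the stroma just under the epithelium, and immune cells near LE, glands and smaller vessels, were probably missing from the LCM samples. Each gilt gave 1 library per compartment, so the gilt is the replicate and n = 4 throughout, except in the glandular epithelium (GE) with n = 3. LE and S libraries of the 4 cyclic gilts, and GE and blood vessel (BV) libraries of the pregnant gilts, were used only to show where LE against S in pregnancy differed from other comparisons.

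In the pig the trophoblast does not invade the uterine wall but attaches to the intact surface epithelium, so LE is the layer that conceptuses touch and the layer through which secretions and nutrients pass. Below it, separated by a basement membrane, lies a stroma of fibroblasts in a collagen-rich matrix with small vessels and immune cells. Epithelium and stroma of the uterus are known to signal to each other through secreted growth factors and their receptors, many of them under the control of progesterone and oestrogen.

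Library totals of the 8 libraries ranged from 2832169 to 7081556 counts, the highest in LE of gilt P41, and 11.3 to 16.7% of counts belonged to 2 genes of ribosomal RNA, RN5-8S and RN18S. Over a group, 3 counts correspond to 0.173 CPM in LE and 0.224 CPM in S, a floor that covers counting error only. Levels are CPM, the counts relative to the TMM-scaled size of the library. Gilts are named by the number in their labels, with P for pregnant and C for cyclic, and levels are given per gilt in the order gilt P39, P41, P43 and P139, or as mean ± SD, and fold changes are log2 values of LE minus S ± SE, with Benjamini-Hochberg adjusted p-values of edgeR's quasi-likelihood test with the gilt as a block. A gene counted as called, or differentially expressed, below a false discovery rate (FDR) of 1%.

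The labels were first set against marker genes of the cell types a section could hold. The 16 epithelial markers summed to 3120 to 3669 CPM in the LE libraries and to 56.5 CPM in gilt P39, 627 CPM in gilt P41, 174.5 CPM in gilt P43 and 405 CPM in gilt P139 in S, and 13 of them were called higher in LE. The S sum was therefore 1.81% of the LE sum in gilt P39, 4.78% in gilt P43, 12.8% in gilt P139 and 17.1% in gilt P41. Of the 3 epithelial markers not called, 1 ran the other way, with a log2 fold change of -1.65 and an unadjusted p under 0.05 by edgeR. It was not called by edgeR, DESeq2 or the robust GLM. The 16 stromal fibroblast markers summed to 48960 to 104000 CPM in S, and the LE libraries held 19.5%, 18.5%, 16.3% and 23.8% of the S sum of the same gilt. Of these 16 genes 12 were called higher in S, whereas the surface glycoprotein gene THY1 stood at 622, 60.2, 151 and 296 CPM in LE and 67.5, 41.6, 63.8 and 69.5 CPM in S and ran the other way, with LE above S in each gilt, without being called by edgeR (adjusted p = 0.019), whereas DESeq2 and the robust GLM called it higher in LE (adjusted p = 0.00015 and 3.9e-05). The defining markers of both labels were thus present in the labelled compartment, and markers of the neighbouring compartment were measurable in every library. The part of that RNA in each fold change below was not tested.

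Markers of other cells were also measured. The 12 endothelial markers summed to 460 to 1202 CPM in LE and 1056 to 3309 CPM in S, the highest in gilt P139, and edgeR called none of them, with 3 of 12 under an unadjusted p of 0.05, 1 called by DESeq2 and 2 by edgeR's robust GLM. Leukocyte markers summed to 120 to 245 CPM in LE and 465 to 656 CPM in S, and 6 of 10 tested were called higher in S, among them the pan-leukocyte gene PTPRC at 30.3 ± 2.3 against 106 ± 4.77 CPM. Of the smooth muscle and pericyte markers 3 of 11 were called higher in S, and both tested red cell genes were, HBB standing at 57 ± 22.4 CPM in LE and 332 ± 212 CPM in S. Markers of glandular epithelium reached at most 38.7 CPM in any of the 8 libraries. The study lists several of them, among them MUC6, BHMT and CYP2C36, as differentially expressed in GE between pregnant and cyclic gilts. Their level in GE was not set beside this sum, so it does not show how much gland the libraries held. Of the conceptus trophectoderm markers, CYP17A1, the 3 pig aromatase genes CYP19A1, CYP19A2 and CYP19A3, CDX2 and IL1B2 had 0 counts in all 8 libraries, and the sum of the 13 genes was 19.7 to 32.6 CPM in LE and 29.2 to 91.2 CPM in S. Only 2 of the 13 were detectable in LE or S, GATA3 and the gene matched by the symbol PAG1. That match was by symbol alone, and whether this gene is a pregnancy-associated glycoprotein was not checked. In the cyclic gilts, which held no conceptus, the same sum was 6.58 to 27.2 CPM in LE and 30.6 to 70.9 CPM in S, so it is no measure of conceptus RNA. Motile cilia genes summed to 35.4 to 124 CPM in LE and 36 to 159.7 CPM in S, with none of 5 tested called by edgeR, 1 in each direction by DESeq2 and 3 under an unadjusted p of 0.05. In bulk libraries of this kind, fewer cells of a type and less RNA per cell cannot be told apart.

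**Figure D1:**
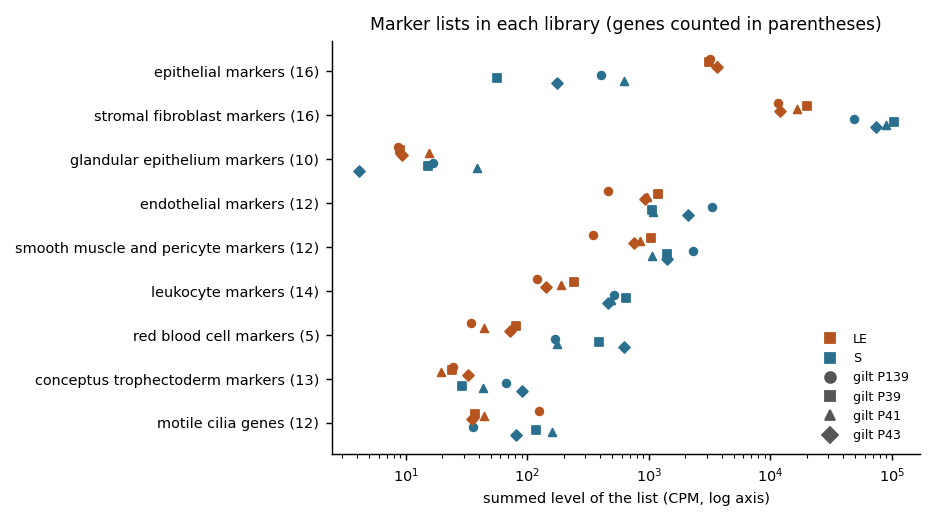
Summed level of each marker list in the 8 libraries (CPM, log axis), LE in orange and S in blue, with 1 symbol per gilt and the number of genes summed in parentheses. Epithelial sums were 3120 to 3669 CPM in LE and 56.5 to 627 CPM in S, and the S sums spread far more between gilts than the LE sums.

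Among the genes higher in LE were the junction gene CDH1, the mucins MUC1 and MUC4, the calcium channel TRPV6, the cyclooxygenase PTGS2 and the receptors MET and ERBB3, and among those higher in S the collagens COL3A1 and COL1A1, HOXA10, ZEB1, IGF2 and the progesterone receptor PGR. Between LE and S, 2477 of 12959 genes (19.1%) were called, 1397 higher in LE (10.8%) and 1080 higher in S (8.33%), and 6059 (46.8%) had an unadjusted p under 0.05. Of the LE genes 321 were detectable in LE only and of the S genes 165 in S only, so they were tested through the compartment where they were high. The other 1076 and 915 called genes were detectable in both. A separate fit of only the 10978 genes detectable in both called 1091 and 930. The genes higher in LE differed by more: 752 of them (5.8% of all genes tested) were at least 4-fold higher and 266 at least 10-fold, against 374 (2.89%) and 12 on the S side. The median size was 2.11 on the log2 scale for the LE genes and 1.77 for the S genes. Direction was the same in 4 of 4 gilts for 1394 of the 1397 and 1079 of the 1080 genes. In 1335 and 1027 of the called genes the 4 LE and the 4 S libraries did not overlap, which over all genes tested was so for 19.4% with LE above and 19.1% with S above. Genes at least 4-fold higher in LE took up 13.3 to 15.2% of the counts of an LE library and 0.868 to 2.43% of those of an S library. Genes at least 4-fold higher in S took up 7.76 to 16.1% in S and 1.92 to 3.05% in LE. The counts of calls depended on single gilts: without gilt P39 they were 723 and 414, without gilt P41 679 and 388, without gilt P139 1641 and 1450, and without gilt P43 no gene was called at 1% (smallest adjusted p = 0.014, 2575 genes under an adjusted p of 0.05, 4558 under an unadjusted p of 0.05). All 2477 genes kept their direction in each of these fits, and DESeq2 and the robust GLM each called all 2477.

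**Figure D2:**
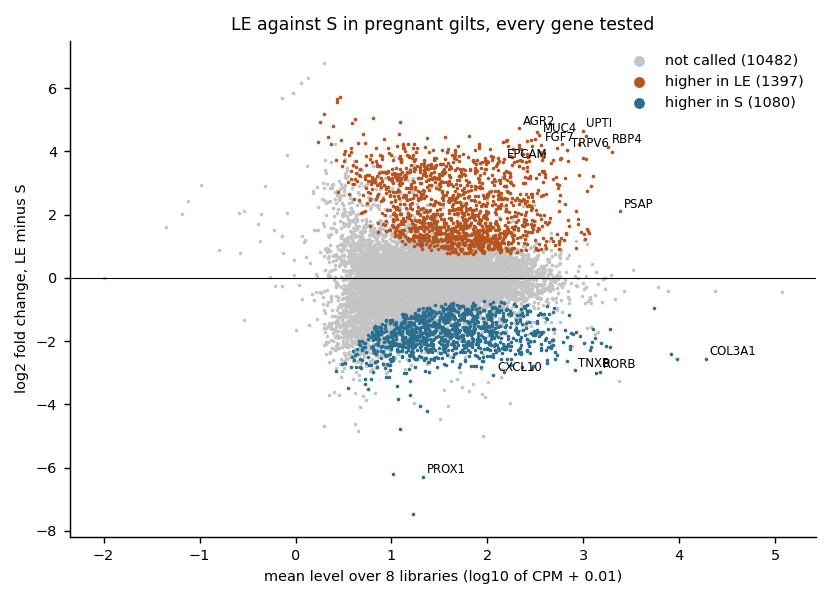
Log2 fold change of LE minus S against the mean level over the 8 libraries for the 12959 genes tested, with genes called higher in LE in orange (1397), in S in blue (1080) and the rest in grey (10482). Called LE genes spread up to beyond 5 on the log2 scale, whereas most called S genes lie between -1 and -3.

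The gilts did not contribute alike to these differences. Of the 752 genes at least 4-fold higher in LE, 570 had their lowest S level in gilt P39, 106 in gilt P43, 44 in gilt P41 and 32 in gilt P139. Of the 374 genes at least 4-fold higher in S, 253 had their highest S level in gilt P39, 73 in gilt P43, 28 in gilt P41 and 20 in gilt P139. Gilt P39 also had the smallest epithelial marker sum and the largest stromal marker sum among the S libraries, and gilt P139 the smallest stromal marker sum. Between these, the stromal sum was larger in gilt P41 (89100 CPM) than in gilt P43 (74430 CPM), the reverse of their gene counts. Many markers are themselves called genes, so the sums are not independent of these counts.

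Among called genes of at least 50 CPM, the 6 largest differences on the epithelial side were those of AGR2, UPTI, SERPINB7, MUC4, NOS1 and ELOVL2. Anterior gradient 2 (AGR2), a protein disulphide isomerase of mucus-secreting epithelia (chr9:86042070-86053893 in Sscrofa11.1), stood at 135, 1169, 166 and 158 CPM in LE and 0.379, 53.7, 2.4 and 22.4 CPM in S. The LE level of gilt P41 was far above the other 3, the S level was highest in the same gilt, and the groups did not overlap (log2 fold change 4.73 ± 0.70, adjusted p = 0.0032). UPTI, the uterine plasmin and trypsin inhibitor that is a known secretion of the pig uterus (chr17:47792171-47807770), stood at 1369.7, 2565, 2049.6 and 1420.0 CPM in LE and 7.59, 218, 50.7 and 190.1 CPM in S (4.65 ± 0.79, adjusted p = 0.0052). SERPINB7, a serine protease inhibitor (chr1:157953872-157999242), stood at 418, 1007, 419.6 and 600.3 CPM in LE and 1.14, 76.1, 11.3 and 70.5 CPM in S (4.63 ± 0.76, adjusted p = 0.0046). In both genes every LE library was above every S library, and the S level was lowest in gilt P39. The membrane mucin MUC4 (chr13:134192412-134248435) differed by 4.51 ± 0.72, the nitric oxide synthase NOS1 (chr14:35112898-35299297) by 4.48 ± 0.68 and the fatty acid elongase ELOVL2 (chr7:7651707-7732353) by 4.47 ± 0.51. NOS1 reached 2242, 1666, 2365 and 1765 CPM in LE against 20.9, 130.1, 75.1 and 249 CPM in S, with the highest S level in gilt P139.

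Among genes at least 4-fold higher in LE, the 5 with the highest levels were PSAP, RBP4, ASAH1, EMB and LRBA. Prosaposin (PSAP), the precursor of lysosomal saposins, stood at 3156, 5079, 3445 and 3861 CPM in LE and 591, 1085, 822 and 1182 CPM in S (2.10 ± 0.20, adjusted p = 0.0013). Acid ceramidase (ASAH1), a lysosomal lipid hydrolase that works with saposins, stood at 3656 ± 796 CPM against 284 ± 189.9 CPM (3.98 ± 0.46). Retinol-binding protein 4 (RBP4), the plasma carrier of vitamin A and a known uterine secretion, stood at 2761, 4392, 2973 and 3491 CPM in LE and 48.6, 378, 156 and 402 CPM in S (4.14 ± 0.49, adjusted p = 0.0017). All 3 genes were highest in LE of gilt P41 and lowest in S of gilt P39, with no overlap. Embigin (EMB), a partner of lactate transporters, varied most between gilts, at 4490.5, 629, 1699 and 2351 CPM in LE against 151, 172, 142 and 390.2 CPM in S (3.21 ± 0.52). LRBA, a protein of vesicle traffic, stood at 2096 ± 352 CPM in LE and 290.1 ± 96.1 CPM in S (2.91 ± 0.29).

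Of the 21 gene lists, that of cell junctions held the largest number of genes called higher in LE. Of 35 genes of tight, adherens and desmosomal junctions and apical polarity, 31 were tested, 22 were higher in LE and 1 in S, with a median log2 fold change of 3.07 against -0.03 over all genes tested. Each count of called members, here and in the lists below, is to be read beside the 10.8% of all genes tested that were higher in LE and the 8.33% higher in S. A count near these shares says nothing about its list. Of each list the called genes of highest level are named by rule, and further members were chosen for their known roles after their values were seen. E-cadherin (CDH1), the adherens junction protein that defines epithelia, stood at 1164, 1093, 1156 and 1100.5 CPM in LE and 11, 149.6, 44.6 and 125 CPM in S (4.23 ± 0.68, adjusted p = 0.0042). Its LE level varied little between gilts, while its S level was more than 10 times higher in gilt P41 than in gilt P39. The tight junction claudins CLDN8 (4.37 ± 0.57), CLDN4 (4.08 ± 0.47), CLDN1 (3.85 ± 0.29), CLDN3 (3.41 ± 0.52) and CLDN7 (3.23 ± 0.64) were higher in LE, as were the desmosome genes DSC2 (3.92 ± 0.57), DSG2 (3.79 ± 0.73) and DSP (3.69 ± 0.59). Occludin (OCLN) and the scaffold PATJ differed less, by 2.74 ± 0.33 and 2.37 ± 0.22. The exception was CLDN11, a claudin known from tissues other than simple epithelia, at 2.18, 0.826, 0.622 and 2.96 CPM in LE and 8.34, 9.76, 15.1 and 9.7 CPM in S (-2.76 ± 0.54, adjusted p = 0.0086).

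The promoters of these genes are shown because the zinc finger repressors ZEB1 and ZEB2 and their relative SNAI2, which are known to bind E-box sequences in the promoter of CDH1, were among the transcription factors higher in S. ZEB1 stood at 153, 91.1, 78.9 and 54 CPM in LE and 457, 312, 341 and 264 CPM in S (-1.94 ± 0.19, adjusted p = 0.0013), ZEB2 at 102 ± 34.4 against 316 ± 28.2 CPM (-1.69 ± 0.22) and SNAI2 at 26.9 ± 15.6 against 76.7 ± 26.4 CPM (-1.64 ± 0.27). The epithelial splicing regulator ESRP1, another marker gene, stood at 109, 174, 134 and 109.5 CPM in LE and 0.759, 28.6, 7.89 and 14.8 CPM in S (3.66 ± 0.57). The following windows run from 250 bases before to 50 bases after the start that the RefSeq annotation of Sscrofa11.1 gives the gene, 5′ to 3′ on the strand of the gene, with the E-box CACCTG or its complement CAGGTG in capitals. CDH1 lies on the minus strand (chr6:18155937-18156236), CLDN4 on the plus strand (chr3:11039461-11039760) and ESRP1 on the minus strand (chr4:42061657-42061956).
CDH1: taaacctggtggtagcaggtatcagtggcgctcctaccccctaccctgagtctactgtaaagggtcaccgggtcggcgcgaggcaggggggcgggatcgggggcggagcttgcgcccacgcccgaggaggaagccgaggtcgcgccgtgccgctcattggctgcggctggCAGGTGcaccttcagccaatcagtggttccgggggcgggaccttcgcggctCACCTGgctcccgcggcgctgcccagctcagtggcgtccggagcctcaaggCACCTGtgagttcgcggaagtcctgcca
CLDN4: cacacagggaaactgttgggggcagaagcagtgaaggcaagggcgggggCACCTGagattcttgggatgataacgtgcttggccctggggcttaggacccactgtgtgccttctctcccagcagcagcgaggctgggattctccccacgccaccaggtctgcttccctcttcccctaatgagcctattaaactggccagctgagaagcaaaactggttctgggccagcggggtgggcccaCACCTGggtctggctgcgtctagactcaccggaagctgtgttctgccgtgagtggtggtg
ESRP1: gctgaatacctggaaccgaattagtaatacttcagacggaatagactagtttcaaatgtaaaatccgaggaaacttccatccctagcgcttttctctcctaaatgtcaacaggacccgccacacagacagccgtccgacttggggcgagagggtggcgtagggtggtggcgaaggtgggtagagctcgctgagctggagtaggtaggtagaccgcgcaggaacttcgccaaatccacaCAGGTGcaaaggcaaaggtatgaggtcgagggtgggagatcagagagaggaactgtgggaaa

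The CDH1 window held 3 of these hexamers, with first bases at positions -80, -29 and 23 relative to the annotated start, where 1 is the first base of the gene, the CLDN4 window held 2, at -201 and -10, and the ESRP1 window held 1, at -12. The window of EPCAM, the epithelial adhesion molecule, which differed by 3.68 ± 0.58, held none. Searched on both strands, the hexamer was present in 21% of the 12953 promoter windows of genes tested that could be read. It was present in 29.5% of those of genes higher in LE and in 33.4% of those at least 4-fold higher in LE. On the S side the shares were 17.9% for genes higher in S and 19.5% for those at least 4-fold higher in S. It was present in 14 of 31 junction genes (45.2%), in 9 of 16 epithelial markers and in 6 of 34 stromal matrix genes. CCGGTT, part of the motif of the epithelial factor GRHL2 and not overlapping the E-box, was present in 8.8% of all windows, 8.89% of those of LE genes and 5.56% of those of S genes. Among genes at least 4-fold higher the shares were 8.91% in LE and 3.21% in S. In the lists CCGGTT was present in 4 of 31 junction genes (12.9%), 2 of 16 epithelial markers (12.5%) and 2 of 34 stromal matrix genes (5.88%). These matches describe letters in a window and were not tested for binding.

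Of 25 listed mucin and glycocalyx genes, 18 were tested, 7 were higher in LE and 1 in S. MUC1, the membrane mucin whose presence on the uterine surface is classically tied to attachment, stood at 373, 536, 371 and 443 CPM in LE and 3.03, 83.6, 28.8 and 37.9 CPM in S (3.93 ± 0.63, adjusted p = 0.0041). MUC4 stood at 734, 433, 534 and 916 CPM in LE and 2.66, 37.4, 29.5 and 71.4 CPM in S, and MUC13 at 11.4 ± 7.12 against 1.61 ± 1.77 CPM. In LE MUC4 was highest in gilt P139 and MUC1 in gilt P41, and for both genes the groups did not overlap. The glycosyltransferases GALNT3 (4.06 ± 0.57), FUT2 (3.60 ± 0.25), GALNT12 (2.47 ± 0.48) and GCNT1 (2.04 ± 0.30) were higher in LE, and the sialyltransferase ST3GAL4 was higher in S at 25.7 ± 4.99 against 7.11 ± 0.594 CPM.

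Integrins, the receptors that couple cells to matrix and to attachment ligands, divided between the compartments, with 9 of 26 tested genes of the list higher in LE and 6 higher in S. The alpha v subunit ITGAV stood at 750.0, 580.0, 656 and 866 CPM in LE and 182, 253, 150.2 and 194 CPM in S (1.88 ± 0.22, adjusted p = 0.0018), and its beta partners ITGB6 (3.87 ± 0.69) and ITGB3 (2.03 ± 0.33) were higher in LE. The collagen and laminin receptor subunits ITGA2 (3.27 ± 0.30) and ITGA3 (3.23 ± 0.25) were also higher in LE, at 619.8 ± 165 and 92.3 ± 17.7 CPM. Higher in S were ITGA8 at 132 ± 20.1 against 34.6 ± 9.48 CPM, ITGA11 (-1.98 ± 0.22), ITGA4 (-1.81 ± 0.26), the ligand fibronectin FN1 (-2.05 ± 0.23), LGALS1 (-2.10 ± 0.33) and SDC1 (-1.77 ± 0.32). For LGALS3, a galectin called higher in LE (1.10 ± 0.22), the libraries overlapped.

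The basement membrane that separates both compartments was also divided, with 6 of 29 tested genes higher in LE and 14 higher in S. On the LE side were parts of the hemidesmosome and of laminin 332, the anchor of epithelial cells to the basement membrane: ITGA6 at 313, 612, 489 and 333 against 71.3, 169.8, 162 and 227 CPM (1.53 ± 0.28), ITGB4 (2.13 ± 0.27), LAMB3 (3.06 ± 0.42), COL17A1 (3.72 ± 0.74) and, from laminins of mature membranes, LAMA5 (1.60 ± 0.24). On the S side were the type IV collagens COL4A1 at 2869 ± 671 against 925 ± 197 CPM (-1.63 ± 0.28), COL4A2, COL4A5 and COL4A6, the nidogens NID1 (-1.88 ± 0.17) and NID2, perlecan (HSPG2, -1.62 ± 0.23) and the laminin chains LAMA2 (-2.17 ± 0.17), LAMB1, LAMB2 and LAMC3. Also called higher in S were COL18A1, CD151 and PLEC, and of these CD151 and PLEC are known as hemidesmosome components.

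Genes of the prostaglandin pathway lay mainly on the epithelial side, with 6 of 16 tested higher in LE and 2 in S. The inducible cyclooxygenase PTGS2, which makes the prostaglandin precursor, stood at 268, 524, 426 and 387 CPM in LE and 3.41, 38.7, 13.7 and 68.4 CPM in S (4.20 ± 0.60, adjusted p = 0.0028). The phospholipase PLA2G4A, which releases arachidonic acid, differed by 2.58 ± 0.27, and the exporter ABCC4 stood at 308, 511, 479 and 305 CPM in LE and 28.4, 77.1, 84.4 and 134 CPM in S (2.46 ± 0.37). The 4 LE libraries of PTGS2, PLA2G4A and ABCC4 were all above the 4 S libraries. Of the prostaglandin receptors, PTGER2 (3.17 ± 0.29), PTGER4 (1.84 ± 0.24) and PTGDR (1.66 ± 0.32) were higher in LE. The prostacyclin synthase PTGIS was higher in S at 191, 179.5, 197 and 156 CPM against 31.5, 35.1, 28.3 and 35 CPM (-2.47 ± 0.18), as was the prostaglandin D synthase PTGDS at 26.4 ± 10.6 against 5.26 ± 2.48 CPM.

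Transporters of ions, water and calcium formed the longest set of called LE genes after the junctions, with 15 of 33 tested higher in LE and 2 in S. The apical calcium channel TRPV6 stood at 1335, 891, 1509 and 1315 CPM in LE and 13.7, 123, 97 and 134 CPM in S (4.04 ± 0.63), and its close relative TRPV5 at 273 ± 63.5 against 14.7 ± 7.57 CPM (4.30 ± 0.47). The calcium-binding protein S100G, which carries calcium across epithelial cells, stood at 23.4, 9.09, 7.46 and 12.1 CPM in LE and 1.52, 0.65, 0.343 and 0.462 CPM in S (4.12 ± 0.38, adjusted p = 0.0012). All 3 subunits of the epithelial sodium channel were higher in LE: SCNN1A at 156 ± 30.2 against 15.1 ± 9.04 CPM (3.49 ± 0.45), SCNN1B (2.60 ± 0.40) and SCNN1G. SCNN1G had 1 count in all S libraries together and 85 in LE, a ratio of 62.1 (95% interval 10.8 to 2480.3) per scaled library, the interval covering counting error only. The kinases that regulate sodium transport, SGK1 (2.66 ± 0.43) and WNK1 (1.85 ± 0.19), and the sodium pump subunit ATP1B1 (2.30 ± 0.32) were also higher in LE. So were the ion transport genes KCNJ16, KCNE3, SLC26A4 and FXYD3, with log2 fold changes of 4.11, 2.54, 3.79 and 3.89, and the carbonic anhydrase CA12 (2.85). The sodium-calcium exchanger SLC8A1 (-1.49 ± 0.23) and WNK4 (-1.78 ± 0.29) were higher in S.

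Ligands and receptors of the fibroblast growth factor family were found on both sides. FGF7, a ligand usually made by stroma in other organs and known to be epithelial in the pig uterus, stood at 238, 921, 1296 and 304 CPM in LE and 6.45, 68.3, 30.2 and 46.7 CPM in S (4.22 ± 0.51, adjusted p = 0.0018). Its LE level was several times higher in gilts P41 and P43 than in gilts P39 and P139, and every LE library exceeded every S library. FGF10, the closest relative of FGF7, was higher in S at 127.8, 118, 126 and 153 CPM against 64.6, 28.6, 38.8 and 15.1 CPM in LE (-1.99 ± 0.37, adjusted p = 0.0072). FGF9 was higher in LE (3.30 ± 0.49) and FGF2 in S (-1.76 ± 0.28), while the receptors FGFR2 and FGFR1 were higher in LE (3.43 ± 0.21) and in S (-2.07 ± 0.39). MET, the receptor of hepatocyte growth factor, stood at 998, 569, 984 and 999.5 CPM in LE and 21.6, 69.3, 67.2 and 155 CPM in S (3.72 ± 0.49). The related receptor MST1R (2.65 ± 0.18), the growth factor activating protease ST14 (3.70 ± 0.43) and its inhibitor SPINT1 (3.70 ± 0.49) were also higher in LE. In all, 7 of 20 tested genes of this list were higher in LE and 3 in S.

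In the EGF family 6 of 13 tested genes were higher in LE and 1 in S. The receptors ERBB3 (665 ± 216 against 49.1 ± 33.4 CPM, 3.97 ± 0.59), ERBB2 (1.89 ± 0.21) and ERBB4 (2.33 ± 0.34, libraries overlapping), the ligands EGF (2.76 ± 0.29) and TGFA (2.67 ± 0.48) and the feedback inhibitor ERRFI1 (1.90 ± 0.20) were higher in LE, and the ligand NRG2 was higher in S (-2.14 ± 0.22). For insulin-like growth factors 3 of 15 tested genes were higher in LE and 5 in S. The ligands were higher in S and the receptors IGF1R and INSR in LE, whereas the receptor IGF2R was not called. IGF2 stood at 166 ± 17 CPM in S and 40.9 ± 4.53 CPM in LE (-2.03 ± 0.17), and IGF1 at 1139.8, 2287, 1654 and 508 CPM in S and 636, 632, 492 and 65.1 CPM in LE (-1.84 ± 0.34, adjusted p = 0.0071). IGF1 was higher in S in each gilt, yet its libraries overlapped, with both compartments of gilt P139 low. IGF1R stood at 537 ± 51.3 CPM in LE and 266 ± 63.4 CPM in S (1.04 ± 0.19) and INSR differed by 0.89 ± 0.16. The binding proteins IGFBP4 (-1.95 ± 0.24) and IGFBP5 (-2.21 ± 0.34) and the protease PAPPA that cleaves them (-2.39 ± 0.45) were higher in S, while STC1, which is known to inhibit that protease, was higher in LE at 513, 670.2, 282 and 550.5 CPM against 6.07, 69.3, 29.1 and 54.5 CPM (3.89 ± 0.55).

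**Figure D3:**
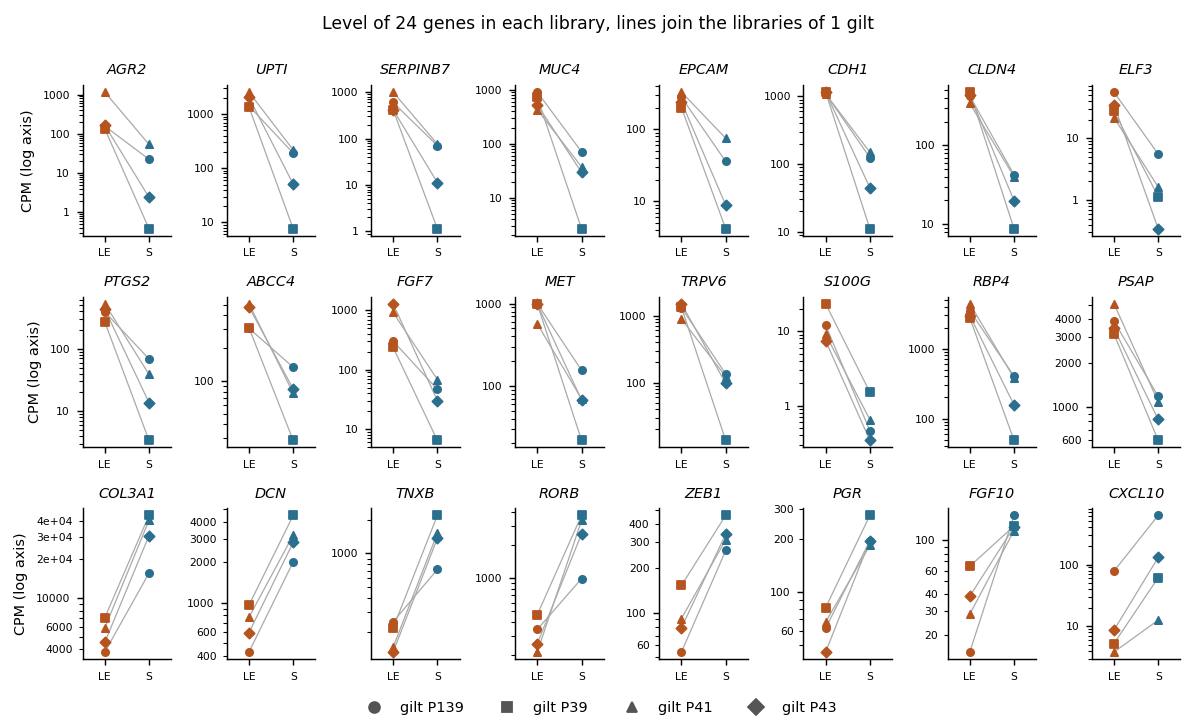
Level of 24 genes in each of the 8 libraries (CPM, log axis), with a line joining LE (orange) and S (blue) of the same gilt and 1 symbol per gilt. The first 2 rows hold genes higher in LE, which except for ELF3 and S100G were lowest in S of gilt P39, and the last row genes higher in S. CXCL10 is the one gene shown whose groups overlap, although the line of every gilt points the same way.

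On the stromal side the fibrillar matrix was the counterpart of the junctions, with 24 of 34 tested genes higher in S and none in LE (1 under an unadjusted p of 0.05, none called by DESeq2 or the robust GLM), and a median log2 fold change of -2.14. Type III collagen (COL3A1) stood at 43982, 40303, 30662 and 15682 CPM in S and 7043, 5874, 4532 and 3816 CPM in LE (-2.56 ± 0.24, adjusted p = 0.0012). The type I collagen chains COL1A1 (-2.55 ± 0.26) and COL1A2 (-2.41 ± 0.21), the proteoglycan decorin (DCN, -2.20 ± 0.17) and the matricellular protein SPARC (-2.16 ± 0.20) were the other genes of highest level. Their fold changes lay close together, and for the 24 genes they ran from -1.41 for versican (VCAN) to -2.92 for tenascin X (TNXB). TNXB stood at 2182, 1515, 1364 and 720.3 CPM in S and 216, 146, 133 and 246 CPM in LE. The stromal marker sum in LE was 16.3 to 23.8% of that in S of the same gilt, as given above.

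Among called genes of at least 50 CPM, the 6 largest differences on the stromal side were those of CXCL10, LOC100625479, RORB, ADGRD1, TNXB and SPON1. The orphan nuclear receptor RORB (chr1:227573972-227776806) stood at 3731, 3351, 2529.9 and 990.1 CPM in S and 465, 213, 253 and 342 CPM in LE (-2.98 ± 0.42, adjusted p = 0.0026). LOC100625479 (chr3:102195743-102205687), annotated as the oestrogen- and retinoid-oxidizing cytochrome CYP1B1, stood at 3481, 3099.6, 2141 and 948 CPM in S and 408, 177, 216 and 365 CPM in LE (-3.0 ± 0.46). In both genes S of gilt P139 was well below the other 3 S libraries but above every LE library. The adhesion receptor ADGRD1 (-2.98 ± 0.59) and spondin 1 (SPON1, -2.84 ± 0.27) followed, at 263 ± 129.9 and 514 ± 227 CPM in S.

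Of the uterine transcription factors 6 of 37 tested were higher in LE and 14 in S. ELF3 (4.12 ± 0.44), KLF5 (4.09 ± 0.48), EHF (3.79 ± 0.49), TFCP2L1 (3.66 ± 0.47) and GRHL2 (3.41 ± 0.46), all known from epithelia, and SOX17 (1.74 ± 0.31) were higher in LE, KLF5 standing at 345, 298, 365 and 362 CPM in LE and 6.07, 31.2, 14.7 and 42 CPM in S. The HOX genes HOXA9, HOXA10, HOXA11 and HOXD11 were higher in S with log2 fold changes of -1.89, -2.28, -2.12 and -1.74, HOXA10 standing at 175 ± 39.8 CPM in S and 37.9 ± 17.8 CPM in LE. Further S genes were TWIST1, TWIST2, PRRX1, TCF21, WT1, MEIS2 and HAND2, a progesterone-induced factor of uterine stroma, at 32.3 ± 10.3 against 10.9 ± 2.56 CPM (-1.52 ± 0.31, adjusted p = 0.0097).

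Of the 22 tested steroid and nuclear receptors, 4 were higher in LE and 5 in S. The progesterone receptor (PGR) stood at 275, 185, 197 and 197 CPM in S and 81.4, 67.3, 45.4 and 62.2 CPM in LE (-1.75 ± 0.18, adjusted p = 0.0014), without overlap. NR2F2, a stromal orphan receptor downstream of hedgehog signals, stood at 462 ± 68.3 against 138 ± 29.5 CPM (-1.76 ± 0.21), and NR2F1 and RARA were also higher in S, with log2 fold changes of -1.64 and -1.27. The membrane progestin receptor PAQR5 (3.26 ± 0.22), PGRMC1 (2.21 ± 0.35), the oestrogen receptor ESR2 (3.23 ± 0.42) and the mineralocorticoid receptor NR3C2 (1.43 ± 0.20, libraries overlapping) were higher in LE. The main oestrogen receptor ESR1 stood at 228, 257, 236 and 228 CPM in LE and 278, 267, 210.2 and 256 CPM in S, with a log2 difference of -0.09 ± 0.16, and was not called (adjusted p = 0.71).

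In the hedgehog, Wnt and TGF-beta lists more genes were higher in S than in LE. Of the hedgehog list 4 of 11 tested genes were higher in S, the receptor component SMO (-1.97 ± 0.33), the co-receptor GAS1 (-1.79 ± 0.21) and the transcription factors GLI2 (-2.50 ± 0.25) and GLI3 (-1.68 ± 0.32), and none was higher in LE by edgeR, DESeq2 or the robust GLM or at an unadjusted p under 0.05. The ligand IHH, which uterine epithelium is known to make under progesterone, had 2 counts in the 4 LE libraries and 4 in the 4 S libraries, both at about the floor, and was not tested. Of the Wnt list 6 of 32 tested genes were higher in LE and 10 in S. WNT7A, the Wnt ligand of uterine epithelium, stood at 5.61, 9.5, 7.77 and 7.16 CPM in LE and 0, 0.65, 0.343 and 0 CPM in S, which held 3 counts in all against 141 in LE, a ratio of 34.3 (95% interval 11.5 to 168). The Wnt secretion factor WLS (2.78 ± 0.26), the receptors FZD5 (3.37 ± 0.58) and FZD6 and the R-spondin receptors LGR4 (2.50 ± 0.29) and LGR5 were higher in LE. LGR5 had 1 count in S and 92 in LE, a ratio of 67.2 (95% interval 11.8 to 2682). The stromal ligands WNT2 (-2.49 ± 0.17), WNT5A (-1.73 ± 0.26) and WNT6, the inhibitors DKK1 (-1.99 ± 0.38), DKK2 (-3.13 ± 0.37) and DKK3, and RSPO1, FZD1, ROR2 and LRP6 were higher in S.

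Of the TGF-beta, BMP and activin list 3 of 30 tested genes were higher in LE, about the share of all genes tested (10.8%), and 13 in S (8.33% of all genes). The 3 LE genes were BMPR1B (3.44 ± 0.43), ACVR1B (2.57 ± 0.22) and ACVR1 (0.95 ± 0.16). The 13 genes higher in S held ligands and their binding proteins, with TGFB1 (-1.76 ± 0.30), TGFB3, BMP4 (-2.28 ± 0.25), the latency proteins LTBP1, LTBP3 and LTBP4, follistatin (FST, -2.06 ± 0.22), FSTL1, FSTL3 and chordin (CHRD), and the receptors TGFBR2 (-1.38 ± 0.24), TGFBR3 and ACVR2A.

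**Figure D4:**
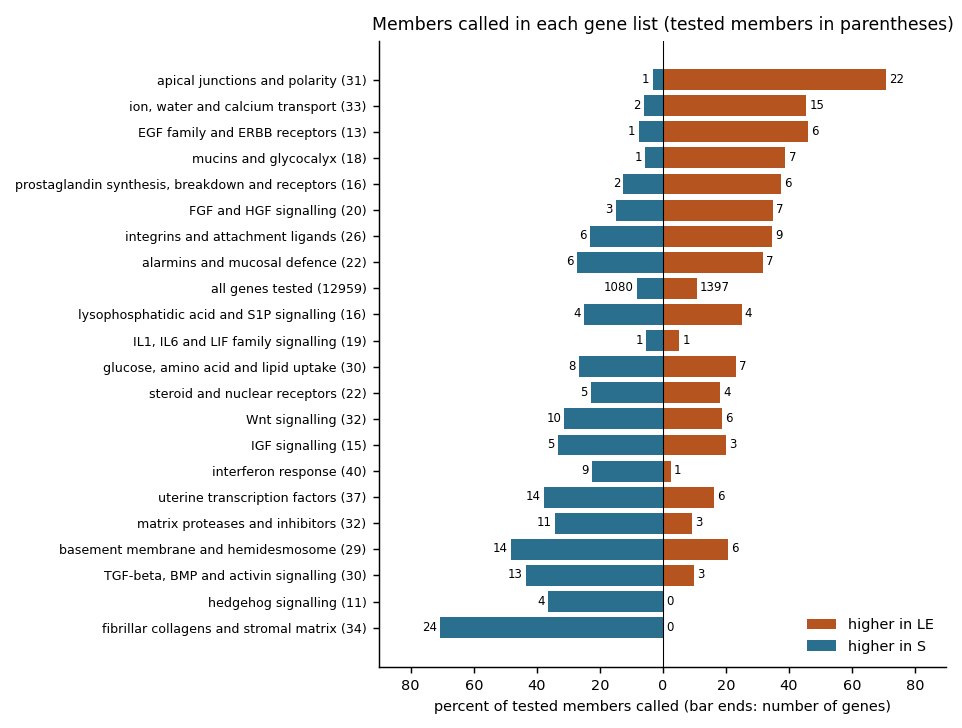
Share of the tested members of each gene list called higher in LE (orange, to the right) and in S (blue, to the left), in percent, with the number of genes at the end of each bar and the number tested in parentheses. Junctions (22 of 31 higher in LE) and fibrillar matrix (24 of 34 higher in S) lie at the ends, and the row of all genes tested gives the background.

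Of 40 tested interferon-responsive genes, 9 were higher in S (8.33% of all genes tested) and 1 in LE (10.8% of all genes tested). The other 30 were not called, and the median log2 fold change of the list was -1.11. The chemokine CXCL10 stood at 61.4, 12.7, 130.3 and 623 CPM in S and 5.3, 3.85, 8.7 and 78 CPM in LE (-3.06 ± 0.36, adjusted p = 0.0017). Both levels were highest in gilt P139, the groups overlapped, and S was above LE in each of the 4 gilts. The antiviral genes IFIT1 (-1.42 ± 0.21), IFIT3, IFIH1, IFI44, IFI44L (-1.04 ± 0.17) and OAS2 (-0.99 ± 0.18), the kinase JAK2 and IRF8 were also higher in S. The number of interferon genes called higher in S depended on the test, with 18 by DESeq2, 24 by the robust GLM and 5 without the gilt block. Over all 12959 genes the same tests called 1804, 2017 and 1465 higher in S. Of 19 tested genes of the IL1, IL6 and LIF families, IL1RAP, the co-receptor of interleukin 1, was higher in LE at 194, 333, 281 and 236 against 28.1, 45.9, 29.1 and 34.2 CPM (2.92 ± 0.18, adjusted p = 0.0012), and the shared receptor chain IL6ST was higher in S (-1.25 ± 0.21).

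Among alarmins and mucosal defence genes 7 of 22 tested were higher in LE and 6 in S. The calprotectin subunit S100A9 stood at 797, 100.2, 136 and 484 CPM in LE and 15.6, 12.4, 8.23 and 94.5 CPM in S (3.71 ± 0.56), with high LE levels in gilts P39 and P139. Clusterin (CLU, 3.37 ± 0.41), S100A12 (3.34 ± 0.44), WFDC2 (4.24 ± 0.62, libraries overlapping), the inhibitor CST6, the immunoglobulin receptor PIGR (2.66 ± 0.36) and lipocalin 2 (LCN2) were the other LE genes. The complement proteases C1S (-2.63 ± 0.34) and C1R, the inhibitor SERPING1 (-1.98 ± 0.28), CD59, ANXA1 and ANXA2 were higher in S.

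Of the matrix proteases and their inhibitors 11 of 32 tested were higher in S (8.33% of all genes) and 3 in LE, about the share of all genes tested (10.8%). MMP14 (-1.83 ± 0.16), ADAMTS2, ADAMTS5 (-2.83 ± 0.48), MMP11, MMP19, MMP23B and CTSK and the inhibitors TIMP1, SERPINF1 and CST3 were higher in S, whereas SERPINB7, SERPINB5 (3.65 ± 0.33) and the cathepsin CTSV (0.95 ± 0.19) were higher in LE. For nutrient uptake 7 of 30 tested genes were higher in LE and 8 in S. The glucose transporter SLC2A1 stood at 1154, 601, 1133 and 1378 CPM in LE and 12.1, 112, 95 and 147 CPM in S (3.78 ± 0.67, adjusted p = 0.0059), and SLC27A2 (3.82 ± 0.70), a fatty acid transporter, SLC7A9, SLC1A1, SLC2A8 and SLC2A12 were also higher in LE. SLC7A8 (-1.59 ± 0.16), SLC3A2, SLC1A5, SLC2A3, CD36, LPL, FABP5 and APOE (-2.03 ± 0.26) were higher in S. In the lysophospholipid list of 16 tested genes, 4 were higher in each compartment, with LPAR3 (2.92 ± 0.49), the lysophosphatidic acid receptor known from implantation, LPAR5 (3.24 ± 0.45), PLPP2 and SGPL1 (1.66 ± 0.19) on the LE side. On the S side were ENPP2 (-1.69 ± 0.33), the enzyme that makes lysophosphatidic acid, the phosphatase PLPP3 (-2.20 ± 0.24), SGPP1 and S1PR2.

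To ask whether the difference between compartments depended on pregnancy, the LE minus S difference was tested against that of the 4 cyclic gilts in 1 model of 16 libraries. Of 12959 genes 7 were called (0.054%), 5 with a larger difference in pregnant gilts (0.0386%) and 2 with a smaller one (0.0154%), and 1808 (14.0%) had an unadjusted p under 0.05. DESeq2 called 134 larger and 116 smaller and the robust GLM 131 and 107, and all 7 genes were among those of both, but with RLE factors edgeR called 0 larger and 1 smaller, and with the filterByExpr gene filter or without the ribosomal RNA genes 1 and 1. The kinase WNK1 stood at 1429 ± 61.4 CPM in LE and 385 ± 71.5 CPM in S of pregnant gilts and at 230.4 ± 18.3 and 308 ± 41.1 CPM in cyclic gilts (difference of differences 2.32 ± 0.25, adjusted p = 0.0086). In cyclic gilts it was 231, 207, 252 and 232 CPM in LE of gilts C40, C42, C78 and C128, below the 322, 357, 261 and 293 CPM of their S libraries, so the order of LE and S was the opposite of that in pregnancy. The fibrinogen-like protein FGL2 was likewise lower in LE than in S of each cyclic gilt, with 486 ± 184 CPM in LE and 96.1 ± 31.1 in S of pregnant gilts and 15.5 ± 2.44 and 84.9 ± 39.1 CPM in cyclic gilts (4.65 ± 0.49). The translation initiation factor EIF4E3 (2.34 ± 0.23) and GNPTAB, which tags enzymes for lysosomes (2.18 ± 0.23), were also lower in LE than in S of each cyclic gilt, at 39.2 ± 2.12 against 77.4 ± 13 and 90.3 ± 19.2 against 125 ± 13.8 CPM. In these genes the mean of pregnant gilts lay well above that of cyclic gilts in LE and close to it in S, a difference within 1 compartment that was not tested.

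The 2 genes with a smaller difference were MGST1, a glutathione transferase of membranes, and MBOAT1, a lysophospholipid acyltransferase. MGST1 stood at 152 ± 57.1 CPM in LE and 54.4 ± 24.3 CPM in S of pregnant gilts and at 509 ± 256 and 28 ± 13.4 CPM in cyclic gilts (-2.67 ± 0.29, adjusted p = 0.0086). MBOAT1 stood at 45.8 ± 7.5 and 22.1 ± 2.49 CPM in pregnant and 196 ± 51.5 and 17 ± 2.54 CPM in cyclic gilts (-2.46 ± 0.22). Both remained higher in LE than in S in pregnancy, by 1.47 and 0.99 on the log2 scale. Leaving out any 1 of the 8 gilts other than gilt C78 left 0 genes called by edgeR, and leaving out gilt C78 gave 3 with a larger and 4 with a smaller difference. LE of gilt C128 stood apart in some genes, with FGF7 at 4.47 CPM (other cyclic gilts 734 to 1173) and RBP4 at 7.1 CPM (544 to 1724.5). In others, such as CDH1 at 842 CPM (755 to 971), it did not. The part of that library in the number of calls was not tested, and few calls do not show equal differences in both states. In cyclic gilts the epithelial marker sum of S was 0.396 to 5.96% of that of LE and the stromal marker sum of LE 10.8 to 20% of that of S, against 1.81 to 17.1% and 16.3 to 23.8% in pregnant gilts.

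**Figure D5:**
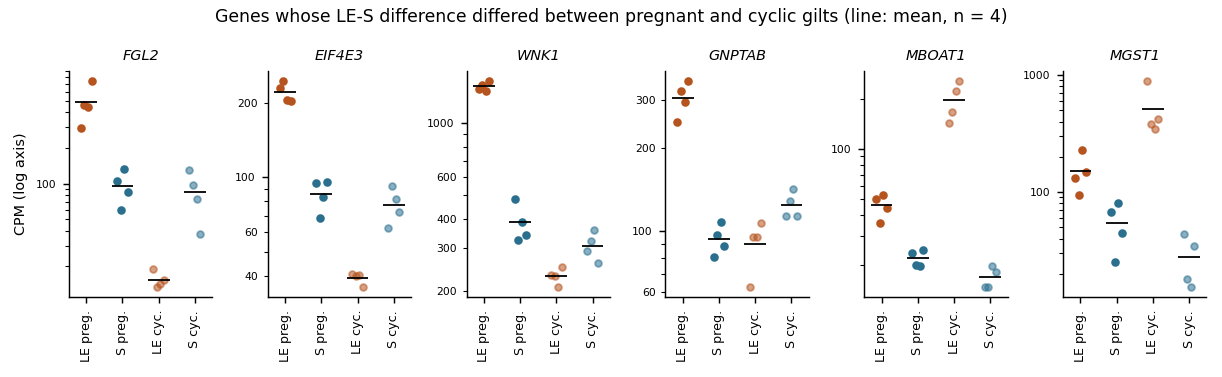
Level of 6 of the 7 genes in LE (orange) and S (blue) of pregnant and cyclic gilts (CPM, log axis, pale points for cyclic gilts), with 1 point per gilt and a line at the mean of 4. WNK1 averaged 1429 CPM in LE of pregnant gilts and 230.4 CPM in LE of cyclic gilts, with S at 385 and 308 CPM.

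Which genes higher in LE than in S were also higher in LE than in GE, the second epithelium of the endometrium, was read from 1 model of the 15 pregnant libraries. That contrast used the same LE libraries, so the counts of the 2 comparisons were not set against each other and values are given side by side. Between LE and GE 2693 of 12959 genes (20.8%) were called, 1655 higher in LE (12.8%) and 1038 higher in GE (8.01%). PTGS2 stood at 0.441 ± 0.322 CPM in GE (LE minus GE 9.75 ± 0.93, adjusted p = 3.7e-05), S100A9 at 0.24 ± 0.214 CPM, SERPINB7 at 0.489 ± 0.159 CPM, UPTI at 2.87 ± 1.17 CPM and STC1 at 3.11 ± 2.56 CPM, all lower in GE than in S on average. AGR2 (5.11 ± 0.77), MUC4 (7.34 ± 1.08), ABCC4 (6.92 ± 0.50), FGL2 (5.81 ± 0.52) and SLC2A1 (3.17 ± 0.60) were likewise higher in LE than in GE. RBP4 (0.10 ± 0.59), CDH1 (0.80 ± 0.55), CLDN4 (0.90 ± 0.44), ERBB3 (0.14 ± 0.54) and MUC1 (0.69 ± 0.72) were not called between the 2 epithelia, RBP4 standing at 2958 ± 1003 CPM in GE. For FGF7 and NOS1 the differences of 2.08 ± 0.66 and 3.12 ± 1.0 did not pass the threshold (adjusted p = 0.029 and 0.031). PGRMC1 was lower in LE than in GE without being called (-1.38 ± 0.40, adjusted p = 0.018), and IL6ST was higher in GE than in LE (-3.08 ± 0.19). COL3A1 was higher in LE than in GE (1.30 ± 0.22), at 2027 ± 831 CPM in GE. Markers of other cells moved with this contrast, as 10 of 16 stromal fibroblast, 10 of 12 endothelial and 9 of 11 smooth muscle markers and 19 of 34 genes of the fibrillar matrix were called higher in LE than in GE, and their part in the LE minus GE values was not tested.

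The same model compared S with BV, in a contrast that used the S libraries of this comparison. Between S and BV 9 genes (0.0694%) were called by edgeR, with 1982 (15.3%) under an unadjusted p of 0.05, 341 called by DESeq2 and 657 by the robust GLM. The 6 genes higher in BV (0.0463%) were CNN1, TPM2, FHL1 and DES, known from smooth muscle, COL12A1 and ALDH1A3, and the 3 higher in S (0.0231%) were VAV3, SRGAP3 and ZC3H12D. SRGAP3 and ZC3H12D were also called higher in LE than in S. Of the 1080 genes called higher in S than in LE, 0 were called higher in S than in BV, 3 were called higher in BV and 1077 were not called. The called genes described above on the stromal side were therefore not shown to be particular to S among the compartments.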

How the data were processed

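LE and S of 4 pregnant gilts on Day 14 were profiled by low-input RNA-seq after LCM. The authors used Trim Galore for trimming, Hisat2 for alignment to the genome Sscrofa11.1, nudup for removal of duplicates and QuasR for the deposited counts per NCBI gene. These counts are whole numbers without normalization, and removing duplicates brings them closer to molecules. Versions, the strand setting of the counting and the CPM value of the gene filter are not given in the sources used here, so reads of overlapping antisense genes may not be separable. Symbols and positions came from the RefSeq annotation of Sscrofa11.1 for all 12959 genes tested.

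Counts were fitted with edgeR 4.0.16 in R 4.3.3 (TMM, quasi-likelihood test, gilt as a block) over genes in either filtered table, with Benjamini-Hochberg adjustment over all of them and an FDR of 1%. SE is the log2 fold change divided by the square root of F. The gilts are the replicates, so p-values measure the spread between gilts. The pairing comes from the animal number in the labels. Deviations of the LE and S library of a gilt from their group means correlated by 0.187 (gilt P39), 0.223 (P41), 0.0882 (P43) and -0.145 (P139) over 12412 genes. Between LE and S of different gilts the values ran from -0.243 to 0.101. LE of gilt P139 correlated more with S of each other gilt than with its own S. Alternatives were no replicate block, RLE factors, DESeq2 1.42.0, the robust GLM, 3 other gene filters, 5% FDR, thinned counts, no ribosomal RNA genes and each gilt left out. Ratios of counts have exact 95% intervals for counting error.

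Named genes were, each way, the 6 largest fold changes at 50 CPM or more with 1 sign in 4 of 4 gilts, the 5 highest levels at 4-fold or more, the 2 called genes of highest level in each list, any member where a count of 5 or fewer is given, and up to 5 interaction genes. The members, the 21 gene lists and the 9 marker lists were chosen with earlier results of these data known. Promoter windows were read with pysam 0.24.0. A few genes counted here are not reported by name.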

Additional observations from a re-analysis of the deposited data

Results flagged for a closer look

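Among 195 groups of 4 libraries of named genes that reached 5 CPM, 11 held a library that stood apart from the other 3 by a gap test at the 95% level, which chance gives in about 1 in 20 groups. AGR2 was 1169 CPM in LE of gilt P41, with the next library at 166.3 CPM. In gilt P139, CXCL10 was 77.97 CPM in LE (next 8.702), S100A9 was 94.48 CPM in S (next 15.55), EMB was 390.2 CPM in S (next 171.7) and ELOVL2 was 63.91 CPM in LE (next 142.5). In gilt P39, SPON1 was 851.6 CPM in S (next 438.9), PGR was 275.0 CPM in S (next 197.2) and ITGA2 was 374.5 CPM in LE (next 669.4). In gilt P41, MET was 569.0 CPM in LE (next 983.9) and SLC7A8 was 97.25 CPM in S (next 135.6). CTSV was 265.7 CPM in LE of gilt P43 (next 232.9).

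The LE minus S difference of pregnant gilts differed from that of cyclic gilts by a test of the interaction in 7 genes, among them by 4.65 for FGL2, 2.34 for EIF4E3, 2.32 for WNK1, 2.18 for GNPTAB, -2.46 for MBOAT1 and -2.67 for MGST1 on the log2 scale.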

How the results depend on the processing

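Direction did not change in any alternative for any of the 98 named genes. The call was kept for all 98 with DESeq2 and the robust GLM, for 97 with RLE factors, filterByExpr or no gene filter (LRP6 lost it), for 94 with thinned counts and for 90 without the gilt block. The 8 lost without the block were AGR2, NR3C2, S100A9, CXCL10, IGF1, OAS2, IFI44L and MGST1. Over all genes the calls without the replicate block stayed within 1.5 times of those with it, in LE and in S. Leaving out gilts, the calls higher in LE ranged from 0 to 1641 and those in S from 0 to 1450, with 98 named genes losing the call without gilt P43, 40 without gilt P41, 29 without gilt P39 and 1 without gilt P139. With 3 gilts per group fewer samples enter the test. Genes higher in S numbered 1804 with DESeq2 and 2017 with the robust GLM, and at 5% FDR the calls were 2404 in LE and 2332 in S. By list, counts moved by over 1.5 times in the following cases. In LE, DESeq2 and the robust GLM called 11 and 10 transcription factors against 6 by edgeR, 12 uptake genes each against 7, and 4 genes of the IL1, IL6 and LIF list each against 1, and the robust GLM 5 protease genes against 3. In S, they called 8 IGF genes each against 5, 18 and 24 interferon genes against 9, 4 prostaglandin genes each against 2, 5 and 6 ion transport genes against 2, 5 smooth muscle markers each against 3, 4 and 5 genes of the IL1, IL6 and LIF list against 1, 2 and 3 mucin genes against 1 and 2 EGF genes each against 1, and the robust GLM 5 FGF genes against 3. Without the replicate block S calls were 5 in the interferon, FGF and smooth muscle lists, 3 in the IL1, IL6 and LIF list and 2 in the mucin and EGF lists.

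Larger and smaller differences in pregnancy were called for 24 and 14 genes without the replicate block (MGST1 then had an adjusted p of 0.043), 0 and 1 with RLE factors, 134 and 116 with DESeq2, 131 and 107 with the robust GLM, 1 and 1 with filterByExpr and also without ribosomal RNA genes, 16 and 10 with no filter, 10 and 7 with genes in both filters, 8 (larger) with thinned counts and 56 and 35 at 5% FDR. They ranged from 0 to 3 and from 0 to 4 when 1 gilt was left out. LE-GE calls were 2616 and 1824 at 5% FDR and ranged from 351 to 1855 in LE and from 160 to 924 in GE when 1 gilt was left out, with the lowest counts without gilt P43, and were 613 and 291 without gilt P39. For S and BV, calls in S and in BV were 5 and 10 with RLE factors, 173 and 168 with DESeq2, 313 and 344 with the robust GLM, 35 and 48 with no filter and 114 and 107 at 5% FDR, calls in S were 1 without the block and 6 with filterByExpr or thinned counts, and both were 0 without any 1 gilt. The cause of these changes was not tested. At the depth of these libraries, genes with fewer than 3 counts over a group could not be told from 0.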

Other observations

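The genes that follow were chosen after their values were seen, and they stand outside the rule by which genes were named.
PROX1, the master transcription factor of lymphatic endothelium, stood at 129, 25.7, 15.4 and 0 CPM in S and 0.624, 0.138, 0 and 0.74 CPM in LE (-6.29 ± 1.21, adjusted p = 0.008).
The lymphatic hyaluronan receptor LYVE1 stood at 56.1, 23.1, 13.7 and 1.39 CPM in S and 2.49, 0.688, 0 and 0.247 CPM in LE (-4.79 ± 0.53).
MMRN1, a multimerin of endothelial cells and platelets, stood at 92.6, 29.3, 10.6 and 0.693 CPM in S and 0, 0, 0 and 0.493 CPM in LE, with 2 counts in all LE libraries together and 368 in S.
All 3 genes were highest in S of gilt P39 and lowest in S of gilt P139, where PROX1 was at 0 CPM and below LE, whereas the sum of the general endothelial markers was highest in that library.
In BV of the 4 pregnant gilts PROX1, LYVE1 and MMRN1 stood at 58.4 ± 103, 23 ± 17.2 and 48.4 ± 88.8 CPM.

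SCG3, a secretory granule protein, stood at 33.4, 31.2, 14.7 and 2.54 CPM in S and 0.312, 0.138, 0.311 and 0.247 CPM in LE (-6.21 ± 0.59).
HHIP, an inhibitor of hedgehog ligands, stood at 73.2, 147, 19.9 and 7.16 CPM in S and 0.936, 0.826, 0.932 and 6.17 CPM in LE.
CHRDL1, an inhibitor of BMPs, stood at 442, 638, 174 and 15.7 CPM in S and 6.55, 8.81, 16.5 and 81.4 CPM in LE.
Neither was called by edgeR (adjusted p = 0.029 and 0.11), and gilt P139 had the lowest S level of both and more CHRDL1 in LE than in S.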
